A study of Mus musculus with 8 samples.

Results

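The genes described here are the enzymes of glutathione metabolism, taken as the named rows of the deposited gene table that its pathway column assigns to the KEGG glutathione map. That map held 136 named rows, and 132 remained after Rrm1, Rrm2, Rrm2b and Anpep were left out, of 55487 named genes in the table. By GENCODE type 68 of the 132 were protein-coding, 54 were processed pseudogenes and 10 were of other types, so many rows are copies of an enzyme gene and not enzymes. Rows were taken by pathway assignment and not by a measured value, but the pathway was chosen with earlier results of these data known.

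Glutathione is a tripeptide of glutamate, cysteine and glycine that cells use to buffer oxidants and to tag reactive compounds. Glutamate-cysteine ligase (catalytic subunit Gclc, modifier subunit Gclm) and glutathione synthetase (Gss) make it, glutathione peroxidases (Gpx) spend it on hydrogen peroxide and lipid peroxides, and glutathione reductase (Gsr) restores it with NADPH. Glutathione S-transferases (Gst) couple it to electrophiles, and in the small intestine, which meets dietary and drug-derived electrophiles, several of these enzymes are abundant in the epithelium.

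RNA was sequenced from ileal crypt cells of C57BL/6 mice that received CPT-11 at 20 mg per kg for 7 days, or from mice of the same strain that received vehicle, with 4 libraries in each group. CPT-11 is irinotecan, a prodrug whose active product poisons topoisomerase I. Crypts were freed from the ileum with EDTA and shaking, strained and dissociated with trypsin, with no sorting step, so cells from elsewhere in the mucosa may be included. The labels do not say that the libraries came from separate mice, so p-values measure the spread between libraries, which may in part be technical.

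Total estimated counts per library ranged from 20790164 to 23479121. Levels are given as CPM, the count scaled to the TMM-adjusted size of its library, and differences as log2 fold changes of CPT-11 over vehicle from edgeR's quasi-likelihood test, with Benjamini-Hochberg adjusted p-values (14011 genes, threshold 0.05). CPT-11 replicate 2 stood apart, and its Spearman correlations over all genes tested with the remaining 3 of its group were 0.931 to 0.962, while those 3 correlated at 0.973 to 0.988 and vehicle libraries at 0.987 to 0.990. Its short genes were high, and 36 of the 60 members tested are among the shortest 20% of genes tested, so results that moved most with it are also given without it. The 8 epithelial markers summed to 12669 to 16736 CPM in CPT-11 libraries and 11094 to 12858 CPM in vehicle libraries. Of the crypt stem cell markers, Lgr5 stood at 2.80 to 3.22 CPM and Olfm4 at 278 to 427 CPM in CPT-11 libraries. In vehicle libraries Lgr5 stood at 11.8 to 13.6 CPM and Olfm4 at 1148 to 1365 CPM. Over the list of 10 such markers 3 passed the threshold as lower and 2 had a positive log2 fold change, with a median of -0.43.

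Glutathione enzymes as a group were more abundant in CPT-11 crypts than in vehicle crypts. The 132 rows together took 0.579% to 0.691% of the counts in CPT-11 libraries, against 0.456% to 0.495% in vehicle libraries, and the ranges did not overlap. Of the 60 members that passed the filter on low counts, 5 rose and none fell: Gsta3, Gsta1, Gsta4, Gpx2 and Gss. Among all 14011 genes tested, 2.98% rose and 2.52% fell. The count of 0 members that fell is from edgeR; at an unadjusted p under 0.05 edgeR had 24 members higher and 1 lower (13.4% and 11.2% of all genes), DESeq2 called 19 higher and 0 lower (7.46% and 5.99% of all genes), and limma-voom called 6 higher and 0 lower (2.95% and 2.72%). With quality weights limma-voom called 20 higher and 3 lower, against 11% and 11.6% of all genes. With 1 library left out, the count that rose was 2 without vehicle replicate 1 or 3, 3 without CPT-11 replicate 4 or vehicle replicate 4, 9 without CPT-11 replicate 3 and 10 without CPT-11 replicate 2. In bulk libraries a change in the number of cells that express a gene and a change in RNA per cell cannot be told apart.

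Most fold changes were positive. Of the tested members 47 of 60 had a positive log2 fold change, against 51.3% of all genes, and their median was 0.47, against 0.01 over all genes tested. Every CPT-11 library lay above every vehicle library for 16 members, against 8.41% of all genes, and below for 1 member, Idh2, against 10.1% of all genes. The median depended on the library that stood apart: it was 0.30 without CPT-11 replicate 2 and 0.13 without CPT-11 replicates 2 and 4. Without CPT-11 replicate 2, 10 of 60 rose, against 4.48% of all genes, and the 5 named above were among them. In the same 7 libraries every CPT-11 library lay above every vehicle library for 18 members and below for 1, against 10.8% and 12.2% of all genes.

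Markers of cell types differed between the same groups. Of 20 markers of mature enterocytes 2 rose, Fabp2 and Slc10a2, 19 had a positive log2 fold change, and the median was 0.75. None fell by edgeR, with 10 higher and 0 lower at an unadjusted p under 0.05, while DESeq2 called 7 higher and 0 lower and limma-voom 2 higher and 0 lower; no enterocyte marker rose without vehicle replicate 1, 2 or 3. Their summed level was 21878 to 67627 CPM in CPT-11 libraries, with the highest in replicate 2, and 12917 to 20807 CPM in vehicle libraries. Of 10 markers of crypt base stem cells 3 fell, and of 10 markers of dividing cells 5 fell, both counts the same with DESeq2 and limma-voom. Of the stem cell markers 2 had a positive log2 fold change, with a median of -0.43, and of the dividing cell markers 0, with a median of -0.71. By edgeR 2.98% of all genes tested rose and 2.52% fell. Of 9 tested markers of B and plasma cells 4 rose, and of 10 of macrophages and dendritic cells 1 rose. The lists for Paneth, goblet, enteroendocrine and tuft cells, T cells, stroma and epithelium had no call by edgeR or limma-voom, with 0 to 2 genes higher and 0 to 3 lower at an unadjusted p under 0.05 by edgeR, and DESeq2 called 2 Paneth genes lower, 1 enteroendocrine gene in each direction, 1 tuft gene lower and 1 epithelial gene higher. Without CPT-11 replicate 2 edgeR called 2 Paneth genes and 1 enteroendocrine gene lower. With the length trend removed it called 4 Paneth genes, 1 enteroendocrine gene and 1 tuft gene lower, and 6 enterocyte markers higher. No listed marker was at 0 in all libraries. The part of these markers in the changes of the glutathione enzymes was not tested.

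**Figure D1:**
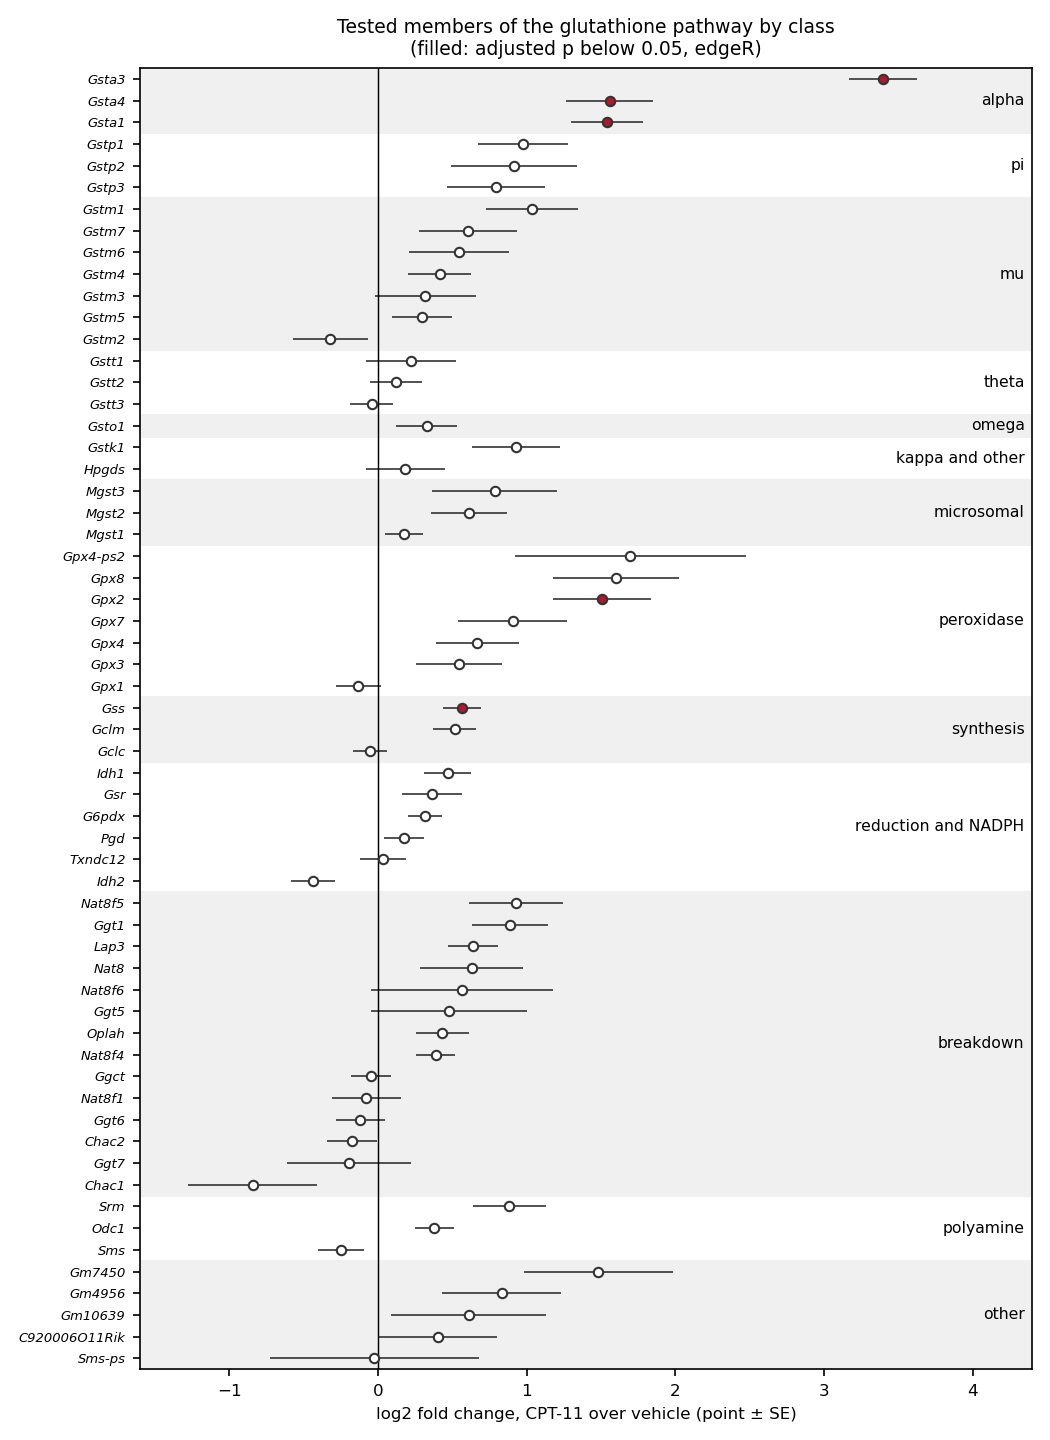
Log2 fold change of CPT-11 over vehicle (horizontal axis, point ± standard error) for the 60 tested members, grouped by class down the page. Filled points mark the 5 members with an adjusted p below 0.05, and Gsta3 at 3.40 lies farthest from 0.

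The alpha class of the transferases handles products of lipid peroxidation and many electrophilic compounds. With classes taken from gene names, it was the class in which every tested member rose. Of its 4 rows 3 were tested and all 3 passed the threshold, with a median log2 fold change of 1.56. Gm10639 and Gm3776, near copies of Gsta1, lie outside the class by name. Gm10639 was tested and did not pass by edgeR with all libraries, but passed without CPT-11 replicate 2. The summed level of the class, per kilobase of gene length, was 145 to 335 CPM per kb in CPT-11 libraries and 60.7 to 77.1 CPM per kb in vehicle libraries. That was 3.72% to 4.71% of the summed level of the whole pathway in CPT-11 libraries, against 1.69% to 2.23% in vehicle libraries, so the share of the class within the pathway also differed without overlap.

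Gsta3 (ENSMUSG00000025934, GRCm38 chr1:21240589-21265661, plus strand) encodes a transferase known in mice for conjugating the epoxide of aflatoxin B1. Its levels were 42.2, 33.9, 31.5 and 47.6 CPM in CPT-11 replicates 1 to 4, against 3.92, 4.64, 2.38 and 3.79 CPM in vehicle replicates 1 to 4. The groups were far apart, and CPT-11 replicate 2 lay within the range of the other CPT-11 libraries. The log2 fold change was 3.40 ± 0.23 (SE), a 10.5-fold difference, with an adjusted p of 7.67e-05 by edgeR's quasi-likelihood test. It passed the threshold in all 20 alternative analyses run, with log2 fold changes from 3.16 to 3.52.

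Gsta4 (ENSMUSG00000032348, chr9:78182774-78209349, plus strand) encodes the transferase with high activity toward 4-hydroxynonenal, an aldehyde formed from oxidized lipids. It stood at 75.8, 149, 48.0 and 94.1 CPM in CPT-11 replicates 1 to 4 and at 28.7, 34.4, 28.5 and 32.9 CPM in vehicle replicates 1 to 4. All CPT-11 libraries were above all vehicle libraries, with replicate 2 the highest. The log2 fold change was 1.56 ± 0.29 (SE, adjusted p = 0.0166, edgeR) and 1.23 without CPT-11 replicate 2 (adjusted p = 0.00547, edgeR). The call was lost without vehicle replicate 1 (adjusted p = 0.0665) and without vehicle replicate 3 (adjusted p = 0.0716), at log2 fold changes of 1.53 and 1.51.

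Gsta1 (ENSMUSG00000074183, chr9:78230656-78242684, plus strand) had 74.4, 125, 53.2 and 76.5 CPM in CPT-11 replicates 1 to 4, against 31.8, 31.9, 25.0 and 24.2 CPM in vehicle replicates 1 to 4. The groups did not overlap, and the log2 fold change was 1.54 ± 0.24 (SE), with an adjusted p of 0.00818 (edgeR). Its value is uncertain because the locus on chromosome 9 holds near copies that may share reads, and how reads were counted is not given. The longest transcripts of Gsta1 and of Gm10639 (chr9:78289923-78305525, plus strand) are 96.6% identical over 802 aligned bases, and those of Gsta1 and Gm3776 are 99.5% identical. Gm10639 had 54.0, 5.30, 39.6 and 52.6 CPM in CPT-11 replicates 1 to 4, against 21.3, 31.9, 24.5 and 21.5 CPM in vehicle replicates 1 to 4, with a log2 fold change of 0.61 ± 0.52 (SE, adjusted p = 0.480, edgeR). Without CPT-11 replicate 2 the log2 fold change of Gm10639 was 0.98 ± 0.16 and passed (SE, adjusted p = 0.00604, edgeR).

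In CPT-11 replicate 2 the split between these copies was unlike that in any other library. Gsta1 took 95.9% of the 2120 counts given to Gsta1 and Gm10639 there (exact 95% interval 95.01% to 96.7%, counting error only), against 57.3% to 59.2% in the other CPT-11 libraries and 50% to 59.8% in vehicle libraries. The sum of both rows did not set that library apart: it was 128, 131, 92.8 and 129 CPM in CPT-11 replicates 1 to 4, against 53.1, 63.9, 49.5 and 45.8 CPM in vehicle replicates 1 to 4. With Gsta1, Gm10639, Gsta2, Gm3776 and Gm8074 added into 1 row before the fit, the log2 fold change was 1.17 ± 0.16 (SE), a 2.25-fold difference, with an adjusted p of 0.00413 (edgeR). Gsta2, at 2 to 17 counts per library, was too low to test.

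**Figure D2:**
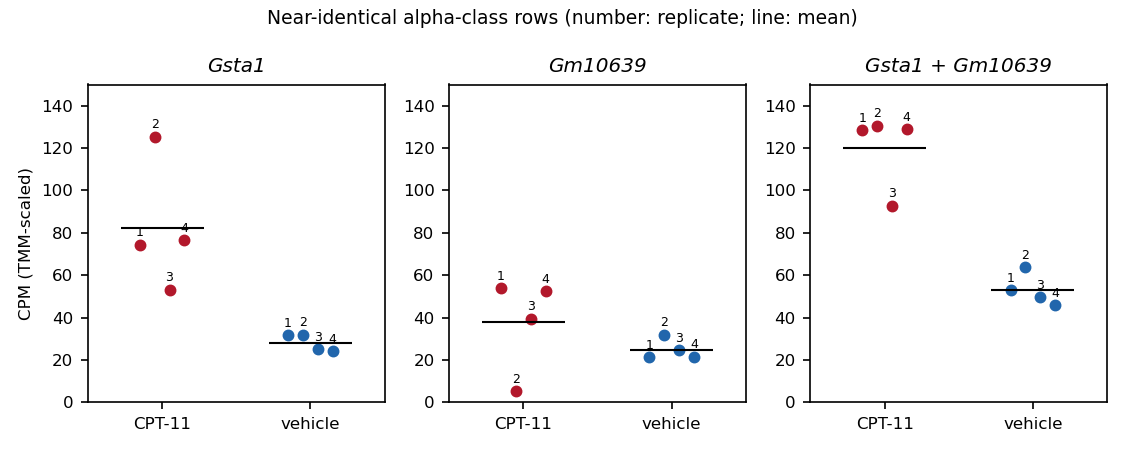
Level in CPM (vertical axis) of Gsta1, Gm10639 and their sum in each library, CPT-11 at left and vehicle at right in each panel, with numbers for the replicate and lines for the mean of 4 libraries. CPT-11 replicate 2 is the highest for Gsta1 and the lowest for Gm10639, and at 131 CPM it lies beside CPT-11 replicates 1 and 4 in the sum.

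The upstream sequence of the genes that rose was searched for the core of the antioxidant response element, the site bound by NRF2, written TGACNNNGC on either strand. RefSeq windows of 250 bases before to 50 bases after the start site (GRCm38.p6) were at hand for 60 of the 132 members, as 79 promoters. The core was found in 12 of the 79 promoters, which is 15.2%, against 12.4% of 32851 promoters of all genes, and in 10 of the 60 members, which is 16.7%. Of the 5 members that rose only Gsta3 held it in this window, and Gsta4 was not among the windows. Each line gives a promoter 5′ to 3′ on its gene's strand with the core in capitals, for Gsta3 (chr1:21240335-21240634, plus), for Gclm (chr3:122245307-122245606, plus), and for the called members without a match, Gsta1 (chr9:78230419-78230718, plus), Gpx2 (chr12:76795505-76795804, minus) and Gss (chr2:155592761-155593060, minus).
Gsta3: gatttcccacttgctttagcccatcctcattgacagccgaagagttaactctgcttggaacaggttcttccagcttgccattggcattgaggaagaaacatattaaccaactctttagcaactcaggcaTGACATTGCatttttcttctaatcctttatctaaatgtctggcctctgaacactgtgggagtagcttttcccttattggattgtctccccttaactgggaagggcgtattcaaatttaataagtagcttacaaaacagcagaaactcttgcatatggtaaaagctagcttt
Gclm: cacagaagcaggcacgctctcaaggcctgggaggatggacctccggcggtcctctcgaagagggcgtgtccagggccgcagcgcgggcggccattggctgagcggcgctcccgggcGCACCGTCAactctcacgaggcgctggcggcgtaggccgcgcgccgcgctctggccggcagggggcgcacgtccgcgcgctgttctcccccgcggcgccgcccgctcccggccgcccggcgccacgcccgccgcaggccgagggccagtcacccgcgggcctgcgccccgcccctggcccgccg
Gsta1: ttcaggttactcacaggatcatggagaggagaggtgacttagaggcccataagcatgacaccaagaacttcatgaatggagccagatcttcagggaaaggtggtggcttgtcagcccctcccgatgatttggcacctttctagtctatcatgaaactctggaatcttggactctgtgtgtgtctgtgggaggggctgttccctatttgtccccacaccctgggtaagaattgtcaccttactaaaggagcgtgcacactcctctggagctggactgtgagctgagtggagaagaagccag
Gpx2: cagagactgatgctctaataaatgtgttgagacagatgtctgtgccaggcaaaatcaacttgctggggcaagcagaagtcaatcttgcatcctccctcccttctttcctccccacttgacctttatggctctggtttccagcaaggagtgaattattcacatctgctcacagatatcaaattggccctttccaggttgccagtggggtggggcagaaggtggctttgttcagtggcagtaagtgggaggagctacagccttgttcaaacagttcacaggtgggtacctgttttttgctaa
Gss: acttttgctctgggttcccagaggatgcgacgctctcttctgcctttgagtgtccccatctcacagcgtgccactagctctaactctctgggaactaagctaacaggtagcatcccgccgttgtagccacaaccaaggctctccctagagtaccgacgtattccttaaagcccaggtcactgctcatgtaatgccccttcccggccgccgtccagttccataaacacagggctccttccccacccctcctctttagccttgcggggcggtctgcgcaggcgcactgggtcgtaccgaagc
The match in Gsta3 begins 121 bases upstream of the start site and reads TGACATTGC on the gene's strand. The match in Gclm begins 134 bases upstream and is on the opposite strand, where it reads TGACGGTGC. A match describes letters in this window only and says nothing of binding.

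The other cytosolic transferase classes did not pass the threshold, though most of their fold changes were positive. Over all Gst rows 22 of 27 were tested, 3 rose and none fell, 20 of 22 had a positive log2 fold change, and the median was 0.58. That median was 0.24 without CPT-11 replicate 2 and 0.31 after a trend with gene length was removed from each library, so its size depended on that library. For Gst rows that fell the count was 0 by edgeR and 0 at an unadjusted p under 0.05, and 0 by DESeq2.

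Gstp1 (chr19:4035407-4037985, minus strand), the pi-class enzyme that had the highest level per kilobase of any transferase in both groups, measured 425, 1009, 348 and 506 CPM in CPT-11 replicates 1 to 4 and 256, 306, 311 and 289 CPM in vehicle replicates 1 to 4. The groups did not overlap, with CPT-11 replicate 2 far above the rest. The log2 fold change was 0.98 ± 0.30 (SE) and missed the threshold (adjusted p = 0.0887, edgeR); without CPT-11 replicate 2 it was 0.56 and passed (adjusted p = 0.0363). Gstp2 and Gstp3 had log2 fold changes of 0.92 and 0.79 (0.46 and 0.40 without CPT-11 replicate 2), and the sum of the 3 pi rows gave 0.97 ± 0.30 (adjusted p = 0.0930).

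The mu class, whose members conjugate aromatic epoxides, had 7 tested rows, 6 of them positive, with a median of 0.42. Gstm1 had 29.7, 69.9, 28.8 and 32.3 CPM in CPT-11 replicates 1 to 4, against 15.98, 24.8, 22.9 and 14.7 CPM in vehicle replicates 1 to 4, with a log2 fold change of 1.03 ± 0.31 (SE, adjusted p = 0.0821, edgeR), or 0.64 without CPT-11 replicate 2 (adjusted p = 0.0536). No vehicle library reached the lowest CPT-11 library. Gstm3 had overlapping groups, at 43.2, 75.8, 32.1 and 30.2 CPM with CPT-11 and 34.6, 46.1, 45.1 and 19.1 CPM with vehicle, and its log2 fold change of 0.32 turned to -0.034 without CPT-11 replicate 2. Gstm2 was the mu row with a negative log2 fold change, at -0.32 (adjusted p = 0.442, edgeR). It was -0.51 ± 0.22 without CPT-11 replicate 2 (SE, adjusted p = 0.178, edgeR). With the length trend removed it was -0.58 ± 0.16 (SE, adjusted p = 0.0532, edgeR).

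The theta and omega classes had the smallest medians among the transferases, 0.12 and 0.33. Gstt1 had 17.6, 45.3, 18.6 and 20.5 CPM in CPT-11 replicates 1 to 4, against 17.7, 27.5, 21.8 and 20.0 CPM in vehicle replicates 1 to 4, so apart from CPT-11 replicate 2 the values overlapped, and the log2 fold change of 0.23 turned to -0.19 without that library. Gstt3 had 34.4, 48.1, 35.8 and 37.6 CPM with CPT-11 and 35.4, 42.5, 45.2 and 37.1 CPM with vehicle, a log2 fold change of -0.04 ± 0.14 (SE, adjusted p = 0.882, edgeR), or -0.15 without CPT-11 replicate 2. Gsto1, which reduces dehydroascorbate as well as conjugating glutathione, had 410, 706, 377 and 438 CPM in CPT-11 replicates 1 to 4, against 353, 417, 399 and 367 CPM in vehicle replicates 1 to 4. Its groups overlapped, and the log2 fold change was 0.33 ± 0.20 (SE, adjusted p = 0.339), or 0.099 without CPT-11 replicate 2. Within the summed pathway level, theta rows held 1.07% to 1.21% in CPT-11 libraries and 1.53% to 1.72% in vehicle libraries, and the omega rows held 7.37% to 8.14% in CPT-11 libraries and 9.41% to 9.53% in vehicle libraries. Both shares were lower with CPT-11, without overlap, but the summed levels themselves overlapped. Theta rows stood at 47.2 to 86.7 CPM per kb with CPT-11 and 48.0 to 63.9 with vehicle. Omega rows stood at 319 to 598 CPM per kb with CPT-11 and 299 to 353 with vehicle.

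The microsomal transferases, membrane enzymes of which Mgst2 and Mgst3 also act on lipid peroxides and leukotriene precursors, had positive but unresolved fold changes. Mgst3 had 237, 959, 239 and 328 CPM in CPT-11 replicates 1 to 4, against 214, 293, 275 and 240 CPM in vehicle replicates 1 to 4. Only CPT-11 replicates 2 and 4 lay above the vehicle libraries, and the log2 fold change of 0.78 ± 0.42 (SE, adjusted p = 0.275, edgeR) was 0.078 without replicate 2. Mgst2 had 127, 258, 106 and 136 CPM with CPT-11 and 90.9, 117, 94.0 and 108 CPM with vehicle, a log2 fold change of 0.61 ± 0.26 (SE, adjusted p = 0.180), or 0.27 without CPT-11 replicate 2 and 0.24 with the length trend removed. The mitochondrial and peroxisomal kappa enzyme Gstk1 had 38.0, 71.0, 30.8 and 33.0 CPM with CPT-11 and 18.6, 31.4, 24.3 and 16.5 CPM with vehicle, a log2 fold change of 0.93 ± 0.30 (SE, adjusted p = 0.0976), or 0.59 without CPT-11 replicate 2.

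**Figure D3:**
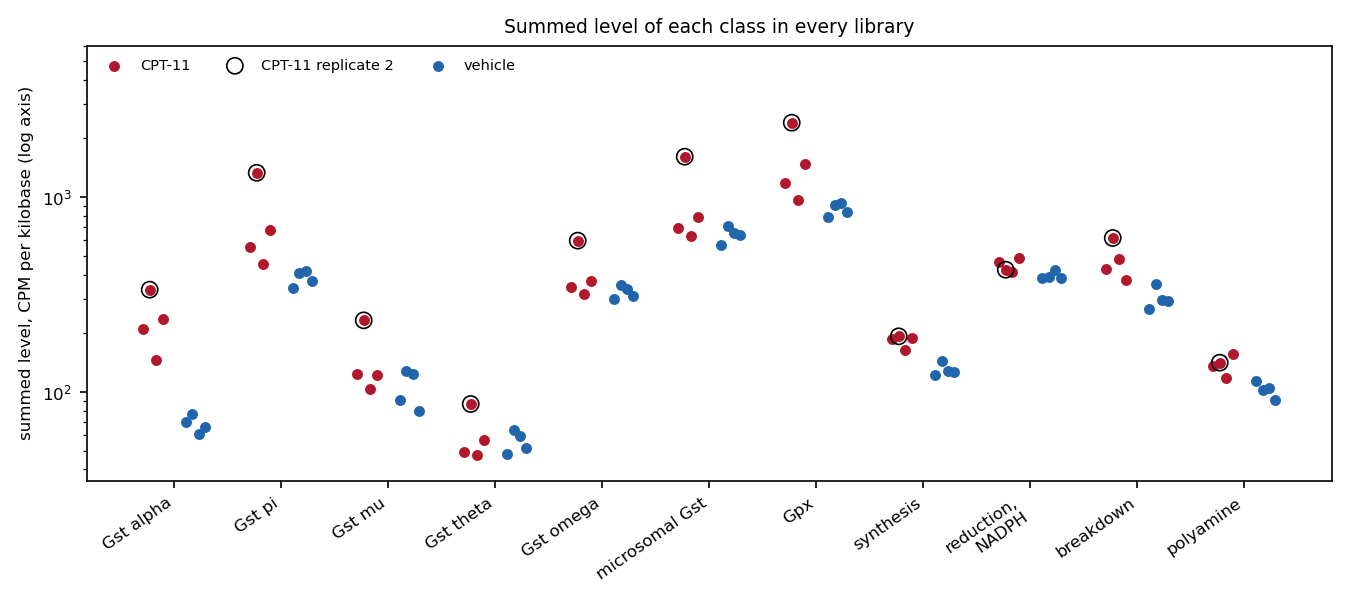
Summed level of each class in CPM per kilobase (vertical log axis) in every library, CPT-11 at left and vehicle at right of each class, with a ring around CPT-11 replicate 2. The alpha class is at 145 to 335 in CPT-11 libraries and 60.7 to 77.1 in vehicle libraries, and the synthesis enzymes are at 164 to 193 in CPT-11 libraries and 123 to 144 in vehicle libraries.

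Among the peroxidases 1 member rose, Gpx2, the gut epithelial form of the enzyme. Its levels were 637, 1564, 459 and 815 CPM in CPT-11 replicates 1 to 4, against 306, 275, 324 and 317 CPM in vehicle replicates 1 to 4 (ENSMUSG00000042808, chr12:76792333-76795554, minus strand). Every CPT-11 library was above every vehicle library, and the vehicle libraries were close together, at 305 ± 21.9 CPM (SD, n = 4). The log2 fold change was 1.51 ± 0.33 (SE), a 2.85-fold difference, with an adjusted p of 0.0306 (edgeR). Per kilobase Gpx2 had the highest mean level of any member in CPT-11 libraries, at 814 CPM per kb, against 286 in vehicle libraries, where Gstp1, Gpx1 and Gsto1 stood above it. The Gpx2 call held without CPT-11 replicate 2, at a log2 fold change of 1.07 and an adjusted p of 0.00543, and was lost without CPT-11 replicate 4 or without any 1 vehicle library, with adjusted p-values of 0.0638 to 0.0986.

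The other peroxidases did not pass the threshold. Gpx1, the cytosolic enzyme found in nearly all cells, had 314, 307, 287 and 407 CPM in CPT-11 replicates 1 to 4, against 323, 392, 388 and 338 CPM in vehicle replicates 1 to 4, and its log2 fold change was -0.13 ± 0.15 (SE, adjusted p = 0.611, edgeR). Gpx4, which reduces lipid hydroperoxides in membranes and restrains ferroptosis, had 286, 636, 254 and 329 CPM with CPT-11 and 196, 275, 255 and 221 CPM with vehicle, a log2 fold change of 0.67 ± 0.28 (SE, adjusted p = 0.177). The Gpx4 groups overlapped, and without CPT-11 replicate 2 the log2 fold change was 0.30. Gpx8, at 0.82 to 1.59 CPM with CPT-11 and 0.17 to 0.62 CPM with vehicle, did not overlap between groups and missed the threshold, with a log2 fold change of 1.60 ± 0.42 (SE, adjusted p = 0.0569). Over the family 7 of 11 rows were tested, 1 rose and 6 were positive, with a median log2 fold change of 0.91, or 0.44 without CPT-11 replicate 2. No Gpx row fell by edgeR, at an unadjusted p under 0.05 or by DESeq2.

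Of the 3 synthesis enzymes 1 rose. Gss, which adds glycine in the last step, was that member (ENSMUSG00000027610, chr2:155563181-155592810, minus strand). It had 192, 188, 156 and 211 CPM in CPT-11 replicates 1 to 4, against 118, 125, 136 and 125 CPM in vehicle replicates 1 to 4, with no overlap and no CPT-11 library standing apart. The log2 fold change was 0.57 ± 0.13 (SE), a 1.48-fold difference, with an adjusted p of 0.0333 (edgeR), and it was 0.57 without CPT-11 replicate 2. The call was close to the threshold and held in 12 of 20 alternatives; it was lost without CPT-11 replicate 1 or 4 and without any 1 vehicle library, with adjusted p-values of 0.0793 to 0.122.

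Gclm, the modifier subunit that raises the activity of the ligase, had 74.6, 85.9, 71.0 and 68.2 CPM in CPT-11 replicates 1 to 4, against 48.8, 66.1, 45.8 and 49.0 CPM in vehicle replicates 1 to 4. The groups did not overlap, but the log2 fold change of 0.52 ± 0.15 (SE) missed the threshold, with an adjusted p of 0.0696 (edgeR). For Gclm it was 0.45 without CPT-11 replicate 2 (adjusted p = 0.0612, edgeR) and 0.29 with the length trend removed (adjusted p = 0.250, edgeR). Gclc, the catalytic subunit that sets the rate of synthesis, had 50.6, 38.7, 47.8 and 43.5 CPM in CPT-11 replicates 1 to 4, against 47.7, 47.1, 45.6 and 46.9 CPM in vehicle replicates 1 to 4. Its values overlapped and its log2 fold change was -0.05 ± 0.12 (SE, adjusted p = 0.803), turning to 0.025 without CPT-11 replicate 2. Summed per kilobase the 3 enzymes stood at 183 ± 12.9 CPM per kb with CPT-11 and 130 ± 9.18 CPM per kb with vehicle (SD, n = 4 each). The share of rows that rose was 3 of 22 tested for Gst, 1 of 7 for Gpx and 1 of 3 for synthesis, against 2.98% of all genes. The Gpx and synthesis shares each rest on 1 call that was lost without any 1 vehicle library. A difference between these classes was not tested.

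**Figure D4:**
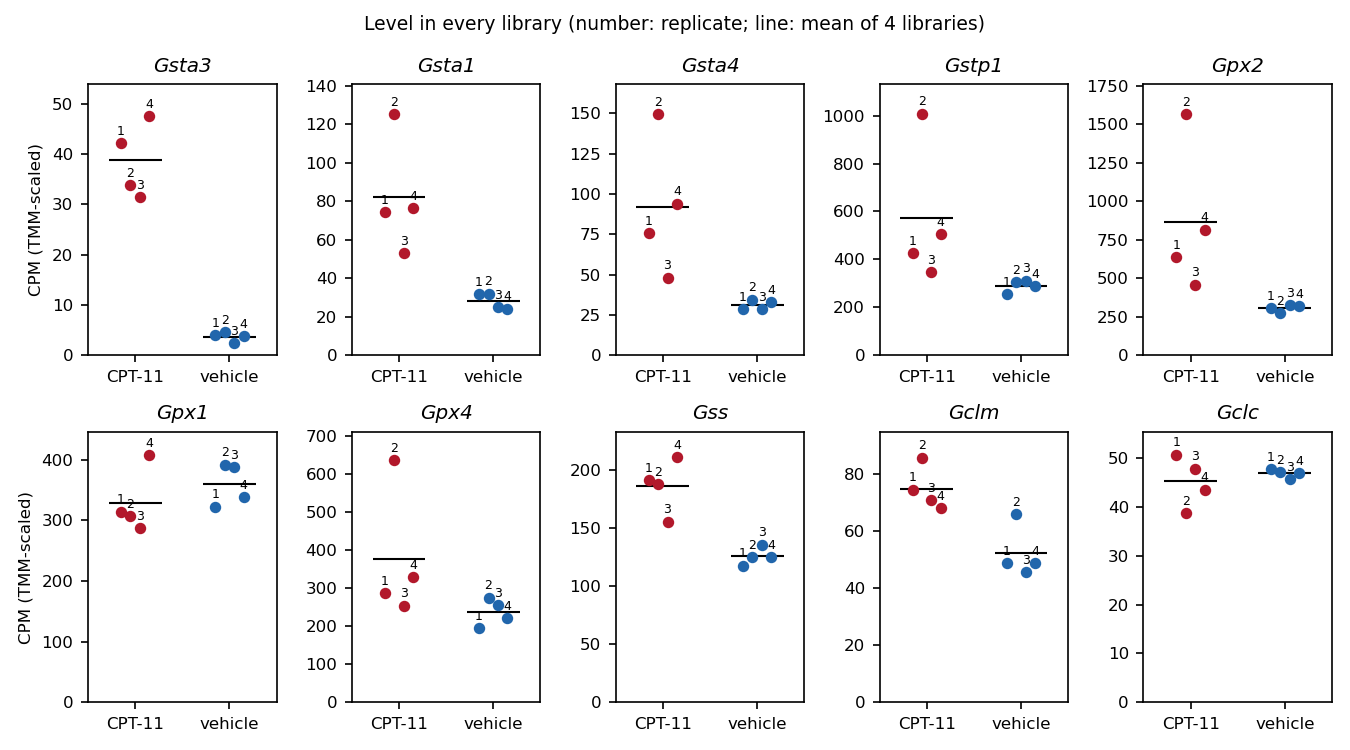
Level in CPM (vertical axes, each from 0) of 10 transferase, peroxidase and synthesis genes in each library, CPT-11 at left and vehicle at right, with numbers for the replicate and lines for the mean of 4 libraries. Gsta3, Gsta1, Gsta4, Gstp1, Gpx2, Gss and Gclm do not overlap between groups, while Gpx1, Gpx4 and Gclc do.

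Of the enzymes that reduce glutathione or supply NADPH none passed the threshold by edgeR. At an unadjusted p under 0.05, 2 of 6 tested rows were higher and 1 lower, against 13.4% and 11.2% of all genes. DESeq2 called G6pdx and Idh1 higher, against 7.46% of all genes, and limma-voom called none. Gsr (glutathione reductase) had 274, 149, 252 and 298 CPM in CPT-11 replicates 1 to 4, against 199, 167, 192 and 198 CPM in vehicle replicates 1 to 4, so CPT-11 replicate 2 lay below every vehicle library and the other 3 above. Its log2 fold change was 0.36 ± 0.20 (SE, adjusted p = 0.291, edgeR), and 0.55 ± 0.11 without CPT-11 replicate 2, where it passed (adjusted p = 0.0155). Idh2, the mitochondrial NADP-dependent isocitrate dehydrogenase, had 80.1, 93.1, 69.6 and 102 CPM with CPT-11 and 114, 107, 135 and 112 CPM with vehicle, and was the member in which every CPT-11 library was below every vehicle library, at a log2 fold change of -0.44 ± 0.15 (SE, adjusted p = 0.111). Its cytosolic counterpart Idh1 had the opposite sign without overlap, at 163 to 258 CPM with CPT-11 and 136 to 161 CPM with vehicle (log2 fold change 0.47, adjusted p = 0.111). G6pdx and Pgd, the dehydrogenases of the pentose phosphate pathway, had log2 fold changes of 0.32 (adjusted p = 0.135) and 0.17 (adjusted p = 0.433). Pgd stood at 383, 316, 349 and 403 CPM with CPT-11 and at 311, 329, 355 and 290 CPM with vehicle, and its groups overlapped.

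Breakdown enzymes did not pass the threshold by edgeR either. At an unadjusted p under 0.05, 5 of 14 tested rows were higher and 0 lower, against 13.4% and 11.2% of all genes. DESeq2 called Ggt1, Lap3, Nat8f4 and Nat8f5 higher, against 7.46% of all genes, and limma-voom called none. Lap3, a leucine aminopeptidase that cleaves cysteinylglycine, had 459, 415, 539 and 352 CPM in CPT-11 replicates 1 to 4, against 254, 339, 283 and 258 CPM in vehicle replicates 1 to 4, with a log2 fold change of 0.64 ± 0.17 (SE, adjusted p = 0.0569, edgeR). Ggt1, the surface gamma-glutamyltransferase that opens the breakdown of extracellular glutathione, had 317, 637, 347 and 294 CPM with CPT-11 and 177, 260, 199 and 225 CPM with vehicle, a log2 fold change of 0.89 ± 0.25 (SE, adjusted p = 0.0711), or 0.58 without CPT-11 replicate 2. Neither gene overlapped between groups, and both passed without CPT-11 replicate 2, with adjusted p-values of 0.0283 and 0.0298. Chac1 and Chac2, which cleave glutathione inside the cell, had log2 fold changes of -0.84 ± 0.43 and -0.17 ± 0.17 (SE, adjusted p = 0.256 and 0.543, edgeR). Without CPT-11 replicate 2 they were -1.21 ± 0.40 and -0.23 ± 0.17 (SE, adjusted p = 0.0935 and 0.452, edgeR).

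The polyamine enzymes, which the map includes because trypanothione is built from glutathione and spermidine, had no call by edgeR. At an unadjusted p under 0.05, 2 of 3 rows were higher, against 13.4% of all genes. DESeq2 called Odc1 and Srm higher, against 7.46% of all genes, and limma-voom called none. Spermidine synthase Srm had 28.4, 52.6, 23.3 and 36.6 CPM with CPT-11 and 21.6, 16.6, 21.9 and 16.1 CPM with vehicle, a log2 fold change of 0.88 ± 0.24 (SE, adjusted p = 0.0656, edgeR), or 0.64 without CPT-11 replicate 2. Ornithine decarboxylase Odc1 had 239, 214, 209 and 266 CPM with CPT-11 and 197, 181, 178 and 158 CPM with vehicle, a log2 fold change of 0.38 ± 0.13 (SE, adjusted p = 0.120). For both genes every CPT-11 library was above every vehicle library.

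The remaining 72 members were not tested, and 45 of them had 0 counts in every library. Of the 72, 58 lay outside the classes, 5 were Gst rows, 4 Gpx rows, 4 breakdown rows and 1 was G6pd2. No untested member exceeded 17 counts in any library, so differences in Gsta2, Gsto2, Gstt4, Gpx5, Gpx6 or G6pd2 were not detectable at this depth. Of the 5 tested rows outside the classes none passed by edgeR with all libraries. At an unadjusted p under 0.05, 1 was higher, against 13.4% of all genes: the pseudogene Gm7450. It stood at 1.68, 1.17, 1.92 and 0.642 CPM with CPT-11 and 0.392, 0.568, 0.167 and 0.81 CPM with vehicle (log2 fold change 1.48, adjusted p = 0.111, edgeR). DESeq2 called it and limma-voom did not. Its transcript is 93.9% identical to that of Odc1 over 1156 aligned bases, so these rows may share reads. With Odc1, Gm7450 and their other near copies added into 1 row, the log2 fold change was 0.39 ± 0.13 (SE, adjusted p = 0.114, edgeR).

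Gene length moved with the libraries and with the members. Tested members had a median length of 1300 bases, against 2708 for all genes tested. In CPT-11 replicate 2, genes of 66 to 1467 bases stood at a median log2 ratio of 0.61 to the mean of the other CPT-11 libraries, and genes of at least 4560 bases at -0.40; in CPT-11 replicate 3 the same groups stood at -0.48 and 0.42. In vehicle libraries the corresponding medians lay between -0.13 and 0.14. Of the members 47 of 60 were higher in CPT-11 replicate 2 than the mean of the other CPT-11 libraries. The share over all genes was not counted, and 36 of the 60 lie in the shortest group, where the median over all genes was 0.61. With a smooth trend on length removed from each library, 9 members rose, against 4.88% of all genes, and they included all 5 called without that step; the added ones were Gstp1, Ggt1, Lap3 and Srm, and Idh2 fell, against 4.38% of all genes.

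**Figure D5:**
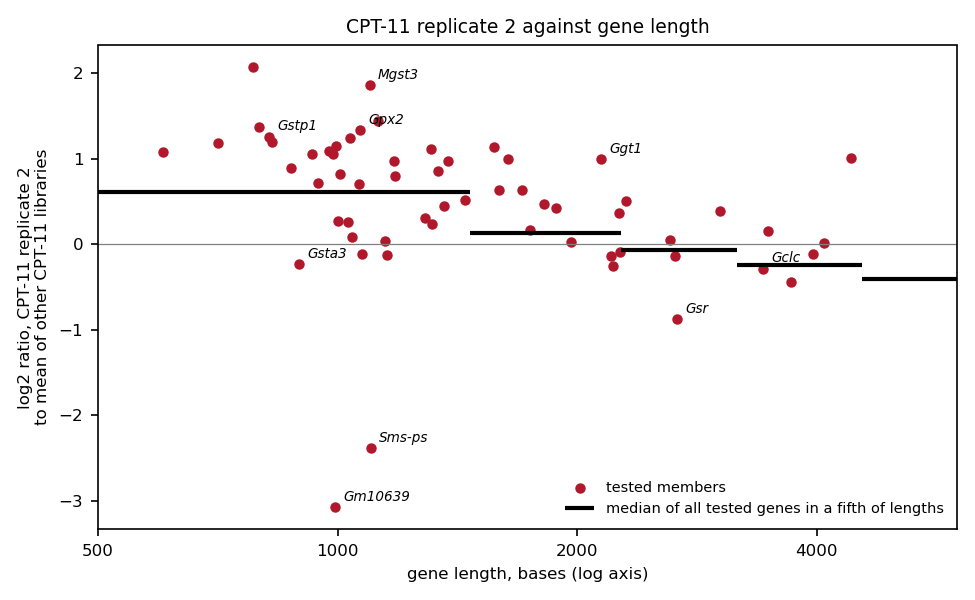
Log2 ratio of CPT-11 replicate 2 to the mean of the other CPT-11 libraries (vertical axis) against gene length in bases (log axis); points are the 60 tested members and bars are the median of all tested genes in each of 5 equal groups by length. The bar for the shortest group lies at 0.61, Mgst3 and Gpx2 lie above it, and Gsta3 at -0.23 and Gm10639 at -3.07 lie below.

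Genes that neighbour the pathway were counted as a list. Of 32 tested genes for glutathione supply, transport and use, none rose and 3 fell, against 2.98% and 2.52% of all genes. Their median log2 fold change was 0.11, against 0.01 over all genes tested. At an unadjusted p under 0.05 edgeR had 4 higher and 6 lower, against 13.4% and 11.2% of all genes. DESeq2 called 2 higher and 4 lower, against 7.46% and 5.99% of all genes. For limma-voom the counts were 0 higher and 3 lower, against 2.95% and 2.72%. Without vehicle replicate 3 only 1 fell. Slc1a1, a glutamate and cysteine carrier, had 52.7, 50.03, 57.9 and 58.9 CPM in CPT-11 replicates 1 to 4, against 111, 101, 96.8 and 111 CPM in vehicle replicates 1 to 4, a log2 fold change of -0.94 ± 0.11 (SE, adjusted p = 0.00220, edgeR). Cdo1, which commits cysteine to taurine and sulfate, fell by 1.01 on the log2 scale (adjusted p = 0.0129, edgeR), and Cbs, the entry enzyme of cysteine synthesis from methionine, fell by 1.20 (adjusted p = 0.0367). The Cbs call was lost without CPT-11 replicate 1 or 4, without vehicle replicate 1, 2 or 3, and with the length trend removed (log2 fold change -0.94, adjusted p = 0.0936). The Cdo1 call was lost without vehicle replicate 3 (adjusted p = 0.0505). The cystine carrier Slc7a11 was near the floor, at 0.55 to 1.71 CPM with CPT-11 and 0.63 to 1.66 CPM with vehicle.

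Regulators and targets of NRF2 outside the pathway were counted the same way, as a list chosen with earlier results of these data known. Of 17 tested genes 6 rose, all of them targets, and none fell, against 2.98% and 2.52% of all genes. Their median log2 fold change was 0.63, against 0.01 over all genes tested. At an unadjusted p under 0.05 edgeR had 11 higher and 1 lower, against 13.4% and 11.2% of all genes. DESeq2 called 9 higher and 1 lower, against 7.46% and 5.99% of all genes. For limma-voom the counts were 6 higher and 0 lower, against 2.95% and 2.72%. The count that rose was 3 without CPT-11 replicate 1 or without any 1 vehicle library. Ephx1, the microsomal epoxide hydrolase, had 111, 109, 88.5 and 111 CPM in CPT-11 replicates 1 to 4, against 13.8, 14.8, 17.5 and 16.3 CPM in vehicle replicates 1 to 4, a log2 fold change of 2.75 ± 0.14 (SE, adjusted p = 9.26e-06, edgeR). The aldo-keto reductase Akr1b8 had 33.3, 23.47, 25.5 and 36.9 CPM with CPT-11 and 3.05, 4.26, 3.55 and 2.98 CPM with vehicle, a log2 fold change of 3.11 (adjusted p = 6.17e-05). Srxn1, Me1 and the quinone reductase Nqo1 had smaller log2 fold changes of 0.67, 0.90 and 0.63 (adjusted p = 0.0234, 0.0239 and 0.0343), and Cbr3 had 3.11 from a vehicle level under 1 CPM (adjusted p = 0.00966). The transcripts of the regulators Nfe2l2 and Keap1 had log2 fold changes of 0.19 and -0.10 (adjusted p = 0.329 and 0.547).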

How the data were processed

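RNA sequencing of ileal crypt cells was analysed from 8 libraries, 4 from CPT-11 treated and 4 from vehicle treated mice. The authors deposited an estimated count for each gene, not normalized, with 10.3% to 11.1% of values not whole per library; the files' table gives gene name, length and pathway. Per the submitters' processing notes, Bowtie2 2.4.1 and genome build GRCm38.p6 were used. How reads were counted, and whether by strand, is not given in the sources used here, so reads of overlapping and antisense genes, and of near copies, cannot be separated beyond those estimates.

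Counts were rounded and tested with edgeR 4.0.16 (R 4.3.3): TMM scaling, the default filter (about 10 counts in the smaller group, 15 in total), robust quasi-likelihood F tests, two-sided, and Benjamini-Hochberg adjustment over 14011 genes. Standard errors come from the F statistic. The 543 unnamed rows, 0.325% to 0.662% of counts, were left out. Alternatives used DESeq2 1.42.0, limma 3.58.1, other scaling and filters, left-out libraries and a length correction. Coordinates and transcripts are GENCODE M21 on GRCm38, in which 55141 of 55487 named rows were found. Promoters are RefSeq's. The fit was tested on simulated data with the same dispersion for all genes and no length trend. That test therefore does not bear on the features of CPT-11 replicate 2. Log2 ratios of single libraries used a pseudocount of 0.5 CPM. Same-numbered libraries correlated at 0.310, 0.166, -0.158 and 0.121 in their deviations, and differently numbered ones at -0.343 to 0.303. Numbers were not taken as pairs in the main fit, and counts with the number as a block are given below.

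The members and lists were chosen with earlier results of these data known. Values per library are given for members that passed the threshold, for Gsta3, Gclc, Gclm, Gss, Gsr, Gpx1, Gpx2 and Gpx4, and for the member of each class with the smallest p and the one with the highest mean CPM; other members that did not overlap between groups were named after their values were seen.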

Additional observations from a re-analysis of the deposited data

Results flagged for a closer look

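In 4 of 58 groups of 4 libraries examined, 1 library of a named member lay apart from its group by Dixon's criterion at the 95% level, which chance alone meets in about 1 in 20 groups. In 3 of the 4 that library was CPT-11 replicate 2. Mgst3 was at 959 CPM there, against 237 to 328 CPM in the other CPT-11 libraries. Gstm1 was at 69.9 CPM there, against 28.8 to 32.3 CPM. Gstt1 was at 45.3 CPM there, against 17.6 to 20.5 CPM. The remaining library was vehicle replicate 2, in which Gclm was at 66.1 CPM, against 45.8 to 49.0 CPM in the other vehicle libraries.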

How the results depend on the processing

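Gsta3 and Gsta1 passed the threshold in all alternatives run for them (20 and 18), Gsta4 in 18 of 20, Gpx2 in 13 of 19 and Gss in 12 of 20, each in the same direction throughout. The count of members that rose, 5 as reported, was 19 with DESeq2, 20 with limma-voom and quality weights, 10 without CPT-11 replicates 2 and 4, 9 with the length trend removed, and 2 to 10 when each library was left out in turn, as given above by library. The count that fell, 0 as reported, was 3 with quality weights, 2 without CPT-11 replicates 2 and 4, and 1 with the length trend removed. The count of Gst rows that rose, 3 as reported, was 6 with DESeq2 and with quality weights, and 2 to 5 with 1 library left out (5 without CPT-11 replicate 3, 2 without vehicle replicate 1 or 3). The count of Gpx rows that rose, 1 as reported, was 2 with DESeq2, limma-voom and quality weights, and 0 to 1 with 1 library left out. The count of synthesis enzymes that rose, 1 as reported, was 0 with no filter, 2 with DESeq2 and quality weights, and 0 to 1 with 1 library left out. With the replicate number as a block, 6 members rose, 3 of them among the 5, with 5 for Gst, 0 for Gpx and 0 for synthesis; no member fell with the block, and the numbers share no stated source. Signs turned in small values: Mgst3 was -0.10 without CPT-11 replicates 2 and 4, and Gstm3 was -0.034 without CPT-11 replicate 2 (-0.034 to 0.47 with 1 library left out). Gstt1 was -0.22 with quality weights, -0.19 without CPT-11 replicate 2, -0.26 without CPT-11 replicates 2 and 4 and -0.075 with the length trend removed (-0.19 to 0.37 with 1 library left out). Gclc was 0.065, 0.025, 0.076 and 0.017 under the same settings (-0.11 to 0.025). Gstt3 was 0.014 when CPT-11 replicate 1 was left out and 0.019 when vehicle replicate 3 was (-0.15 to 0.019). The cause was not tested. The summing of near-identical rows, and the list counts under each setting, were added after the data were seen. Rows at or under 17 counts could not be tested at this depth.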

Other observations

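Gst, Gpx and pseudogene rows of this pathway hold many near copies. The Gpx4 row and its pseudogene Gpx4-ps2 share transcripts that are 99.7% identical, and Gpx4-ps2 had 3.82 CPM in CPT-11 replicate 2, against 0.25 to 0.79 CPM in the other CPT-11 libraries and 0.26 to 0.71 CPM in vehicle libraries. Sms-ps, whose transcript is 100% identical to Sms over 1101 bases, had 0.06 CPM in CPT-11 replicate 2, against 1.55 to 3.31 CPM in the other CPT-11 libraries and 0.85 to 2.84 CPM in vehicle libraries. Together with Gm10639 these are rows in which CPT-11 replicate 2 left the range of all other libraries and in which a near-identical row exists; they were picked after their values were seen.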
